A study of Rattus norvegicus with 16 samples.

Results

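Restraint was compared among rats that were breathing linalool. The comparison set the 4 rats that were restrained while inhaling (R)-(-)-linalool against the 4 rats that inhaled it unrestrained, chosen by their labels, which are 8 of the 16 rats in the study. All were male Wistar rats aged 7 to 8 weeks. Restraint and inhalation each lasted 2 h in the groups that had them. The remaining 8 rats, 4 restrained without odour and 4 controls with neither, served to set the change with restraint beside its size without the odour. Each numbered array of hypothalamic RNA was taken as 1 rat, so the replicates are read as animals. The sources used here do not state the odour dose. Both groups of the comparison inhaled linalool, so the odour was held constant and restraint was the labelled difference.

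Restraint is a standard psychological stressor in rodents. It drives the hypothalamic neurons that make corticotropin-releasing hormone, which leads through the pituitary to the release of glucocorticoids from the adrenal gland, and these steroids return to the brain and switch on target genes through a nuclear receptor. A fast wave of immediate early genes marks recently active cells, while heat shock factor raises chaperone genes when proteins are at risk of misfolding or body temperature climbs. Linalool is a floral monoterpene alcohol of lavender oil and other plants.

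Values are log2(signal + 16) after quantile normalization, so a difference of 1 is a doubling for bright genes and understates the change of dim ones. A gene was called, and is said to have risen or fallen, when limma gave an adjusted p under 0.05 over 18625 probe sets. Before normalization the restrained linalool arrays were all brighter, with median signals of 110.3 to 117.7 against 70.3 to 94.2. The BioC hybridization spike-in stood high on linalool rats 2 and 4 and on restrained linalool rat 2 (916 to 968, against 248 to 283 on the other 13 arrays), so results were also computed on the other arrays, here 2 linalool rats against 3 restrained ones. Among hypothalamic markers, Pmch, Oxt and Avp lay above the 99.0th percentile of all probe sets and Hcrt at the 93.2th, while Pomc, Sim1, Otp and Nr5a1 were below the filter on dim probe sets.

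With restraint, 105 of 10309 measured genes rose (1.02%) and 73 fell (0.708%). The rises were larger, with a median of 0.72 against -0.50 for the falls, and 24 genes rose by over 1 while 6 fell by as much. In 102 of the 105 risen genes and all 73 fallen ones, the 4 restrained rats lay wholly on one side of the 4 unrestrained rats, a separation seen upward in 4.9% and downward in 8.08% of all genes (5.7% and 6.58% of probe sets). The genes were called on these same arrays, so their separation follows largely from the call. By probe set, 314 were called (1.69%), of which 66.6% were higher. On the deposited scale, which moves the median change of all probe sets from -0.02 to 0.32, 1103 were called and 99.4% of them were higher. The count was 143 without linalool rat 1, 127 without linalool rat 3, 117 without restrained linalool rat 1 and 113 without restrained linalool rat 2. It was 73 on the arrays with a low spike-in. All 314 kept their sign there, but these arrays are among those that gave the calls, so that is no separate support. Of the 16 fallen genes named by rule, 13 were not called with the deposited signals, all but Hes5, Tmem234 and Ccdc77.

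**Figure D1:**
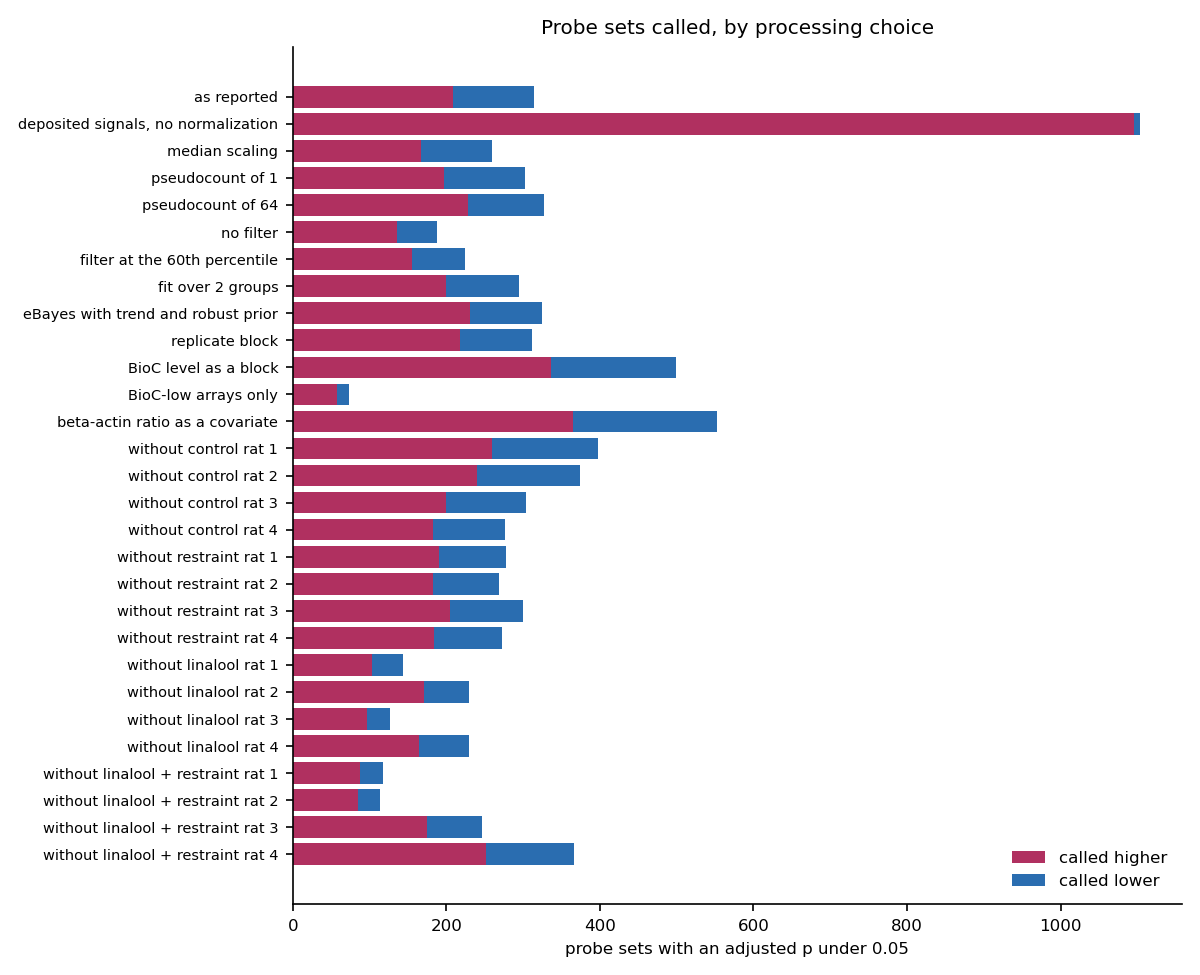
Number of probe sets with an adjusted p under 0.05 on the horizontal axis for each processing choice on the vertical axis, split by direction of the change with restraint among linalool-inhaling rats. Higher calls outnumber lower ones under every choice shown, and the count runs from 73 on the arrays with a low spike-in (BioC-low) to 1103 with the deposited signals.

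Many genes that respond to glucocorticoids rose. Of 32 listed genes 27 were measured, 16 rose, 0 fell, and all 27 changes were positive. Their median change was 0.64, where that of all genes was -0.036. In 19 of the 27 the restrained rats were all above the unrestrained ones, against 4.9% of all genes. Over all genes 1.02% rose and 0.708% fell, the background for the counts of every list below.

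Sgk1, a kinase induced by glucocorticoids that acts on ion channels and transporters, stood at 9.53, 9.48, 9.13 and 9.42 in linalool rats 1 to 4 and at 11.28, 11.59, 11.57 and 11.40 in the restrained ones. The groups stood far apart, and each was tight. Sgk1 rose 4.20-fold (log2 2.07, SE 0.12, adjusted p = 1.67e-07), the smallest p of the genes named here. Pdk4, which blocks the entry of pyruvate into the mitochondrial citrate cycle, went from 7.25, 6.92, 7.06 and 7.69 to 9.11, 9.65, 9.02 and 8.88. No restrained rat came near the unrestrained range, and the rise was 1.93 (SE 0.17, adjusted p = 2.77e-05), with a smaller rise of 0.84 at its dimmer probe set (adjusted p = 0.0117). Ddit4, an inhibitor of mTOR signalling, read 9.54, 9.52, 9.22 and 9.87 without restraint and 11.19, 11.09, 11.17 and 11.06 with it. Its restrained values were the most alike of these 3 genes, and it rose by 1.59 (SE 0.12, adjusted p = 4.32e-06).

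Nfkbia, the inhibitor that holds NF-kappaB in the cytoplasm, rose by 1.09 (SE 0.14, adjusted p = 0.000907). Bcl6, a transcriptional repressor, rose by 1.18 (SE 0.14, adjusted p = 0.000578), and Tiparp, an ADP-ribosyltransferase that restrains the aryl hydrocarbon receptor, by 0.85 (SE 0.09, adjusted p = 0.000106), while a dimmer probe set of Tiparp gave 0.48 and did not pass (adjusted p = 0.303). Fkbp5, the cochaperone that lowers the hormone affinity of the glucocorticoid receptor, stood at 7.82, 8.08, 7.97 and 7.89 and at 8.46, 8.63, 8.75 and 8.63. The groups did not overlap, and the rise of 0.68 (SE 0.14, adjusted p = 0.0187) was a call lost without linalool rat 1 or 3 or restrained linalool rat 2 or 3 (0.64 to 0.69). Its other probe set gave 0.63 and did not pass (adjusted p = 0.182). Cebpb, a transcription factor of metabolic and inflammatory genes, rose by 1.34 (SE 0.27, adjusted p = 0.021), a call lost without linalool rat 1, 2 or 3 or restrained linalool rat 1 or 2 (1.09 to 1.38). Among the 11 that did not pass, Dusp1 changed by 0.58 (adjusted p = 0.29), Mt2A by 0.34 and Angptl4 by 0.07. On the arrays with a low spike-in 8 members were called, with a median of 0.70.

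**Figure D2:**
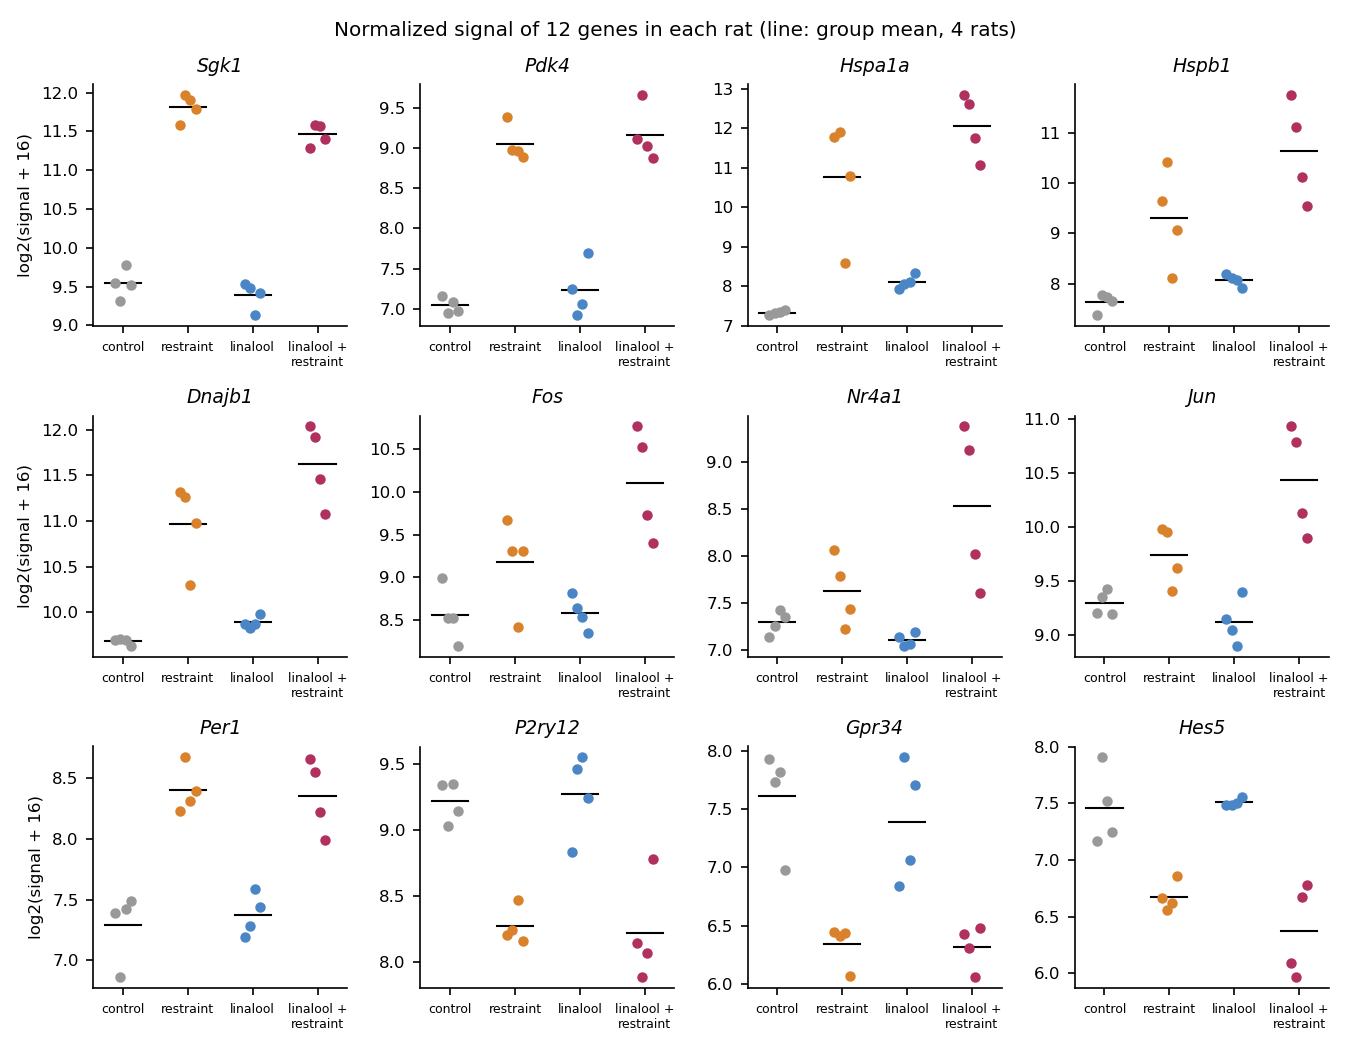
Normalized signal, as log2(signal + 16) on the vertical axis, of 12 genes in each of the 16 rats, by group, with a line at each group mean. The restrained linalool rats lie above all 4 linalool rats for Sgk1, Pdk4, Hspa1a, Hspb1, Dnajb1, Fos, Nr4a1, Jun and Per1 and below them for P2ry12, Gpr34 and Hes5.

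Heat shock genes gave the steepest rises. Of 34 listed genes 29 were measured, 14 rose and 0 fell, with a median change of 0.48 over the 29. In 19 the restrained rats were all above the unrestrained ones, against 4.9% of all genes. Hspa1a, the inducible chaperone of the HSP70 family, stood at 7.94, 8.04, 8.11 and 8.33 in the linalool rats and at 12.83, 12.63, 11.75 and 11.06 in the restrained ones. Rats 1 and 2 were the highest and rat 4 the lowest, yet even rat 4 was above every unrestrained rat. The rise was 15.6-fold (log2 3.96, SE 0.54, adjusted p = 0.0017). Its near-identical copy Hspa1b may share the signal. Hspb1, a small heat shock protein that holds unfolded clients, went from 8.19, 8.12, 8.06 and 7.90 to 11.75, 11.12, 10.12 and 9.55, with the same order of restrained rats, and rose by 2.57 (SE 0.43, adjusted p = 0.00639).

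Dnajb1, the J-domain cochaperone that loads clients onto HSP70, rose by 1.74 (SE 0.21, adjusted p = 0.000554), and a further probe set of it by 1.60. Bag3, a nucleotide exchange factor that links HSP70 to autophagy, rose by 1.18 (SE 0.20, adjusted p = 0.00641). Its partner, the small heat shock protein Hspb8, rose by 0.96 (SE 0.14, adjusted p = 0.00235). Chordc1, a cochaperone of HSP90, rose by 0.85 (SE 0.16, adjusted p = 0.0114), as did Serpinh1, the collagen chaperone, by 0.94, Hsph1, an exchange factor, by 0.79, the lens and glial small heat shock protein Cryab by 0.69, and the mitochondrial chaperonin Hspd1 by 0.49. The factors that control the family gave changes near 0, at -0.02 for Hsf1 and -0.08 for Hsf2, and so did the constitutive Hspa4 at -0.0024. Other members that did not pass include the cochaperones Stip1 at 0.44 (adjusted p = 0.0578), Fkbp4 at 0.31 and Dnajb6 at 0.21, and the mitochondrial Hspe1, which works with Hspd1, at 0.40 (adjusted p = 0.0672).

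The promoters were searched for the recognition letters of the factors that act on these programmes. The heat shock element core was searched as GAANNTTC or TTCNNGAA, each of which reads the same on both strands, from 250 bases before to 50 bases after the start in RefSeq promoters of the GRCr8 build. This core was present in 10 of the 12 risen members that have an entry in that table (83.3%), in 8 of 14 members that did not pass (57.1%), and in 15.4% of all 27457 promoters. Among all genes called higher with an entry it was present in 21 of 85 (24.7%), the heat shock members included, and among those called lower in 5 of 62 (8.06%). A longer element, the core with a further inverted unit after 2 more bases, was present in 5 of the 12 and in 0.736% of all promoters. Other motifs were counted in the same window. The glucocorticoid half-site, AGAACA or TGTTCT, was present in 0 of 15 promoters of risen glucocorticoid-responsive genes and in 2 of 7 of those that did not pass, against 20.1% of all promoters. The cAMP response element TGACGTCA was in 0 of 4 promoters of risen immediate early genes (1.91% of all) and the CArG box of serum response factor in 1 of the 4 (1.64% of all). The E-box CACGTG was in 0 of the 3 risen clock genes and in 2 of 4 promoters of risen immediate early genes (6.65% of all). Among the 85 promoters of all genes called higher, the cAMP response element was in 6 (7.06%) and the E-box in 9 (10.6%). The CArG box was in 2 of the 85 (2.35%) and the glucocorticoid half-site in 5 (5.88%). The 250 bases before the start are shown for 5 of the risen members, to let the placement of the core be seen, with each core in capitals and overlapping cores merged into 1 run. Heat shock members are shown because the core was found in most of them. The windows are read 5′ to 3′ on the gene's strand.
Hspb1: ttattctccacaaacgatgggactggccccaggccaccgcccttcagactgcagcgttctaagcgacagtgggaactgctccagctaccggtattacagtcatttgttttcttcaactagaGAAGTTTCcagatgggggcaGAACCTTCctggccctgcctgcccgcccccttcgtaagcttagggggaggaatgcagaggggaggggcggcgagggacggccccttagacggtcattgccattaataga
Hsph1: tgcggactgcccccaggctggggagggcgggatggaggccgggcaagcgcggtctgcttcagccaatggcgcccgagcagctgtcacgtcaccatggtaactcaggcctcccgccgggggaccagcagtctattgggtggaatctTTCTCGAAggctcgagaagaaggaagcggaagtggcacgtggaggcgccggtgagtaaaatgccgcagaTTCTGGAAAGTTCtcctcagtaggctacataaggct
Serpinh1: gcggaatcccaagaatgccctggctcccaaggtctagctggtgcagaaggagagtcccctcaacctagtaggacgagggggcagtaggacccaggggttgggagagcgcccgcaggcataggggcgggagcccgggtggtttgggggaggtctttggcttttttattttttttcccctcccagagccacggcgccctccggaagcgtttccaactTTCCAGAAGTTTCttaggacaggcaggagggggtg
Hspd1: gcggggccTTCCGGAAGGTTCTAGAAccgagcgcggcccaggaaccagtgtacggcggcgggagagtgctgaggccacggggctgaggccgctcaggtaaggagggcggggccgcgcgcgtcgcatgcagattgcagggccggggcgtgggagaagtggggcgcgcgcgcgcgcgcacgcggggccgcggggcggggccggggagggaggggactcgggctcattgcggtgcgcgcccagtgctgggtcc
Dnajb1: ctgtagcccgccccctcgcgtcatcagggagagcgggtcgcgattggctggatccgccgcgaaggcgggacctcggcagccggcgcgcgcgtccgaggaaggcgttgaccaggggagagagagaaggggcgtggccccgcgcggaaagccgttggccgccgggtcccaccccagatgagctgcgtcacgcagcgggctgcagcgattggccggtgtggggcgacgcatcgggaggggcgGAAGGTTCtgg
The Hspb1 window lies at chr12:26432302-26432551 on the minus strand, with cores beginning 129 and 109 bases before the start. In Hsph1 (chr12:10427118-10427367, plus strand) the cores begin 105, 36 and 31 bases before it. Serpinh1 (chr1:163062977-163063226, minus strand) has them at 35 and 30, Hspd1 (chr9:64084038-64084287, minus strand) at 242, 237 and 232, and Dnajb1 (chr19:41431142-41431391, minus strand) at 11. The upstream window of Hspa1a, the member that rose most, does not hold these letters. A match describes the letters only.

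The count of risen heat shock members moved with single rats. The 14 became 9 without linalool rat 1, 7 without linalool rat 3, 6 without restrained linalool rat 1 and 5 without restrained linalool rat 2. It was 11 without linalool rat 2 or rat 4, 13 without restrained linalool rat 3 and 17 without restrained linalool rat 4, and ran from 13 to 16 when a rat without odour was left out. It was 1 on the arrays with a low spike-in, with the median at 0.40 and Hspa1a at 3.86 (adjusted p = 0.0504). Chordc1 lost its call without restrained linalool rat 2 (0.77).

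Immediate early genes rose in part. Of 41 listed genes 24 were measured, 6 rose, 0 fell, and the median change was 0.57. Fos, a subunit of the AP-1 transcription factor and the usual marker of neuronal activation, stood at 8.82, 8.64, 8.53 and 8.35 in the linalool rats and at 10.77, 10.53, 9.73 and 9.40 in the restrained ones. All 4 restrained rats were above the unrestrained ones, with rats 1 and 2 highest. Fos rose by 1.52 (SE 0.29, adjusted p = 0.014). Nr4a1, an orphan nuclear receptor, read 7.14, 7.03, 7.06 and 7.18 and then 9.38, 9.13, 8.02 and 7.60, again highest in rats 1 and 2, and rose by 1.43 (SE 0.29, adjusted p = 0.0214). Jun, the AP-1 partner of Fos, rose by 1.31 (SE 0.20, adjusted p = 0.00336) at its brightest probe set, while its other probe sets gave 0.59 and 0.89 and did not pass.

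Fosb, a relative of Fos, rose by 0.81 (SE 0.15, adjusted p = 0.0117). It is dim, at 6.12, 6.16, 6.03 and 6.18 in the linalool rats and 7.25, 7.18, 6.55 and 6.72 in the restrained ones. The filter on dim probe sets uses the mean over all arrays, which its restrained values raised. Without a filter Fosb kept its call. Klf6, a zinc finger transcription factor, rose by 0.78 (SE 0.14, adjusted p = 0.0106), and of its other probe sets 1 rose by 0.67 and 1 gave 0.31 and did not pass (adjusted p = 0.191). The growth-arrest gene Gadd45g rose by 0.75 (SE 0.16, adjusted p = 0.0229). Several genes tied to synaptic activity did not pass. Among them were Egr1 at 0.78 (adjusted p = 0.17), Arc at 0.24 (adjusted p = 0.36), Homer1 at -0.10 and Bdnf at -0.21. The count of 6 became 3 and 2 without restrained linalool rats 1 and 2, 10 without rat 4 and 0 on the arrays with a low spike-in (median 0.53). Fos lost its call without restrained rat 1 (1.30, adjusted p = 0.0522) or rat 2 (1.38, adjusted p = 0.0587), and Nr4a1 without any one of linalool rats 1, 2 and 3 or restrained rats 1 and 2 (1.14 to 1.44). Gadd45g lost it without linalool rat 1 or 4 or restrained rat 1 or 2 (0.60 to 0.78), and Fosb without restrained rat 2 (0.72).

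The 4 restrained linalool rats differed among themselves in these programmes. Averaged over the heat shock list, restrained rats 1 to 4 stood 0.86, 0.82, 0.61 and 0.40 above the linalool group's mean. For the immediate early list the same values were 0.79, 0.75, 0.41 and 0.24. The glucocorticoid-responsive list had another order, at 0.78, 1.03, 0.72 and 0.64. Rat 4 was thus lowest in all 3 lists, and rat 2 was highest in the glucocorticoid-responsive list.

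Single genes followed a similar order. Among the 4 restrained rats, the 14 risen heat shock genes were highest in rat 1 (10 genes) or rat 2 (4 genes), and 13 of them were lowest in rat 4. Of all 105 risen genes, 58 were highest in rat 1, 40 in rat 2, 7 in rat 3 and 0 in rat 4, and 76 were lowest in rat 4. Over all 10309 genes the highest value fell in rats 1 to 4 for 2668, 2533, 2347 and 2761 genes. Sgk1 did not follow this order, with rat 1 its lowest restrained value. Rat 4 was also the highest for 12 of 15 oligodendrocyte markers and for all 4 thalamus markers, and rat 2 is the restrained array with the high spike-in. Their part in the order was not tested.

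**Figure D3:**
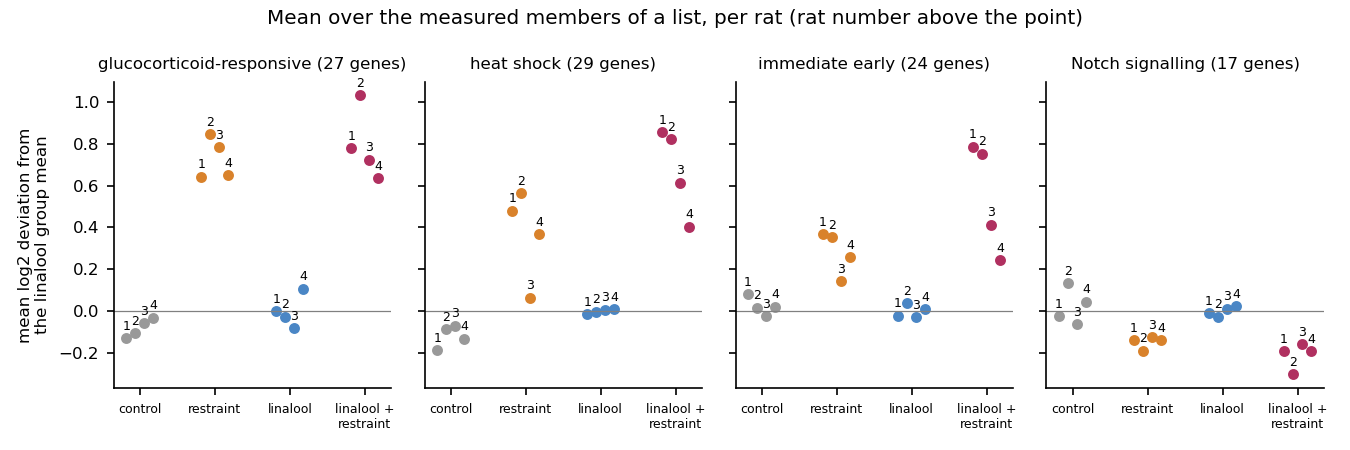
Mean log2 deviation from the linalool group's mean, on the vertical axis, over the measured members of a list in each rat, with the rat's number above its point and the groups along the horizontal axis. The restrained linalool rats lie at 0.40 to 0.86 for the heat shock list and 0.24 to 0.79 for the immediate early list, with rat 4 lowest in both, and at -0.30 to -0.16 for the Notch list.

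A few clock genes rose. Of 20 measured genes 3 rose, 0 fell, and the median was 0.08. Per1, a repressor of the clock that glucocorticoids and cAMP also induce, stood at 7.19, 7.28, 7.59 and 7.44 and at 8.66, 8.55, 8.22 and 7.99. The groups did not overlap, and it rose by 0.98 (SE 0.16, adjusted p = 0.00574). Per2, its paralogue, rose by 0.54 (SE 0.09, adjusted p = 0.00593), and Nfil3, a repressor of clock output genes, by 0.88 (SE 0.19, adjusted p = 0.0295). The core genes Bmal1 and Clock gave -0.07 and -0.06, Cry1 -0.04 and the output gene Dbp -0.15, none past the test. On the arrays with a low spike-in 0 were called, and Nfil3 lost its call without any one of linalool rats 1 to 3 or restrained linalool rats 1 and 2 (0.72 to 0.93).

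The hormone genes of the stress axis did not pass. Crh, which encodes corticotropin-releasing hormone, stood at 7.41, 7.74, 7.35 and 7.34 without restraint and at 8.07, 7.47, 8.01 and 7.96 with it. Restrained rats 1, 3 and 4 were above all unrestrained rats and rat 2 was within their range. The change was 0.42 (SE 0.17, adjusted p = 0.246), and on the deposited scale, where the median change of all probe sets was 0.32, it was 0.76 (adjusted p = 0.0373). Avp, the vasopressin gene, ranged from 11.18 to 12.41 in the linalool rats and from 11.52 to 12.21 in the restrained ones, a change of 0.03 (SE 0.23, adjusted p = 0.972). The glucocorticoid receptor Nr3c1 gave -0.04 and oxytocin, Oxt, -0.04, and 0 of 9 measured members of the list passed.

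Among 21 measured genes of feeding, arousal and other peptides, 1 fell, 0 rose, and the median was -0.12. The faller was Tac3, which encodes neurokinin B. It read 7.64, 7.95, 7.96 and 7.67 and then 7.28, 7.24, 7.50 and 7.28, without overlap, and fell by 0.48 (SE 0.11, adjusted p = 0.0363), but on the deposited scale the change was -0.13 (adjusted p = 0.569). That call was also lost without linalool rat 2 or 3 or restrained linalool rat 1, 2 or 4 (-0.46 to -0.43). The orexin gene Hcrt gave -0.40 (adjusted p = 0.56), Npvf -0.59 (adjusted p = 0.2), Npy -0.08 and Pmch -0.09. Of 17 measured GABA genes and 22 glutamate genes 0 passed, with medians of -0.03 and -0.09.

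Genes of the endoplasmic reticulum stress response leaned upward with 1 call. All 22 measured changes were positive, with a median of 0.26. In 9 of the 22 the restrained rats were all above the unrestrained ones, against 4.9% of all genes. Herpud1, which helps clear misfolded proteins from the endoplasmic reticulum, stood at 9.21, 9.15, 9.46 and 9.41 and at 10.27, 10.09, 10.03 and 9.70. Every restrained rat was above every unrestrained one, and it rose by 0.72 (SE 0.14, adjusted p = 0.0165). The call was lost without linalool rat 1, without restrained linalool rat 1 or without restrained linalool rat 2 (0.63 to 0.69). The master chaperone Hspa5 gave 0.37 (adjusted p = 0.06) and Atf4, the transcription factor of the integrated stress response, 0.40 (adjusted p = 0.1).

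Oxidative and hypoxic stress genes had 0 calls among 19 measured and a median of 0.07. The largest change was that of Hmox1, haem oxygenase, at 1.01 without overlap (adjusted p = 0.09). Of 16 measured genes of the cytokine and NF-kappaB list 2 rose, Nfkbia and Ch25h. Ch25h, which makes an oxysterol with antiviral activity, stood at 6.58, 6.69, 7.32 and 6.60 and at 8.57, 9.20, 7.74 and 7.35. Linalool rat 3 was close under the lowest restrained rat, and Ch25h rose by 1.42 (SE 0.30, adjusted p = 0.0225). Its call was lost without linalool rats 1, 2 or 4 and without restrained linalool rats 1 or 2 (1.09 to 1.38).

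Some targets of Notch, the receptor through which neighbouring cells steer each other's fate, fell. Of 17 measured genes 3 did, 0 rose, and the median was -0.14. Hes5, the repressor that Notch switches on in glia and progenitors, stood at 7.49, 7.49, 7.51 and 7.56 in the linalool rats and at 6.09, 5.96, 6.67 and 6.78 in the restrained ones. The unrestrained values were nearly equal and all 4 restrained ones were well below them. Hes5 fell by 1.14 (SE 0.18, adjusted p = 0.00409). Nrarp, a Notch target that feeds back to inhibit it, read 8.91, 8.66, 8.85 and 8.91 and then 7.89, 7.72, 8.21 and 8.10, without overlap, and fell by 0.85 (SE 0.14, adjusted p = 0.00538). Hey2, a target in vessels and other cells, fell by 0.55 (SE 0.11, adjusted p = 0.0215), a call lost without linalool rat 2 or 3 or restrained linalool rat 2 or 3 (-0.53 to -0.51). Other targets did not pass, with Hes1 at 0.10, Hey1 at -0.12 and Heyl at -0.19, nor did Notch1 at 0.06. With the deposited signals Nrarp gave -0.50 (adjusted p = 0.116), and Hes5 was the 1 member of the list called lower and Lfng, which modifies the receptor, the 1 called higher (0.75), with a median of 0.21. On the arrays with a low spike-in 0 members were called, with Hes5 at -0.99 (adjusted p = 0.0803), Nrarp at -0.81 (adjusted p = 0.074) and Hey2 at -0.48 (adjusted p = 0.193).

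Of the markers of microglia, the resident immune cells of the brain, 3 surface receptors fell and the other 11 did not pass. P2ry12, the receptor by which their processes follow ADP, stood at 8.83, 9.46, 9.55 and 9.24 and at 8.14, 7.88, 8.07 and 8.78. Restrained rat 4 came close under linalool rat 1, and the groups did not overlap. P2ry12 fell by 1.05 (SE 0.18, adjusted p = 0.00629). Gpr34, a lysophosphatidylserine receptor, read 6.84, 7.94, 7.07 and 7.71 and then 6.43, 6.31, 6.06 and 6.48, and fell by 1.07 (SE 0.23, adjusted p = 0.0262). Cx3cr1, the receptor for the neuronal chemokine fractalkine, read 7.34, 7.58, 7.60 and 7.62 and then 6.62, 6.68, 6.91 and 7.15, and fell by 0.69 (SE 0.13, adjusted p = 0.0135).

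Of the 14 measured microglia markers these 3 fell, 0 rose, 9 changes were positive and the median was 0.09. The complement gene C1qc gave 0.67 (adjusted p = 0.17), C1qa 0.44 and C1qb 0.45, and Tmem119 -0.07. The summed signal of the 14 ran from 3814 to 4732 in the linalool rats and from 3781 to 6656 in the restrained ones. In bulk tissue fewer cells of a type and less RNA per cell cannot be told apart. With the deposited signals, where the median change of all probe sets was 0.32, the counts turned to 4 called higher and 0 called lower. The 4 were C1qc at 1.01, C1qb at 0.81, C1qa at 0.79 and Csf1r at 0.70, and the list's median was 0.43. None of the 3 falls was called there (P2ry12 at -0.70 with an adjusted p of 0.0536, Gpr34 at -0.71 and Cx3cr1 at -0.34) or on the arrays with a low spike-in. Without restrained linalool rat 1 or rat 2, P2ry12 alone was called (Cx3cr1 -0.62 and -0.64), and Gpr34 also lost its call without restrained rat 3 or linalool rat 2 or 4 (-0.98 to -0.89).

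Other cell types gave single calls. Sox18, a transcription factor of endothelium, stood at 7.92, 7.63, 7.81 and 7.50 and at 6.31, 6.24, 7.08 and 7.07. The groups did not overlap and restrained rats 1 and 2 were lowest. Sox18 fell by 1.04 (SE 0.20, adjusted p = 0.0156), the 1 call among 18 measured endothelial markers (median -0.01), whose summed signal was 5487 to 6094 in the linalool rats and 4646 to 5747 in the restrained ones. That call was lost with the deposited signals, and without linalool rats 1 or 3 or restrained linalool rats 1 or 2 (-1.01 to -0.90). Gjb6, an astrocyte connexin, read 10.09, 10.15, 10.19 and 10.24 and then 10.57, 10.60, 10.56 and 10.56, a shift of 0.40 (SE 0.08, adjusted p = 0.0175) with no overlap, and was the only one of 15 measured astrocyte markers to pass. Without linalool rat 1 or restrained linalool rat 1 or 2 it did not pass (0.38 to 0.41). The summed astrocyte signal was 57364 to 63009 and 62905 to 67151. Of the markers of neurons (12 measured, median -0.01) and oligodendrocytes (15 measured, median 0.01), 0 were called, nor were any of precursors, pericytes, pituitary, choroid plexus, ependyma, thalamus, telencephalon or blood.

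**Figure D4:**
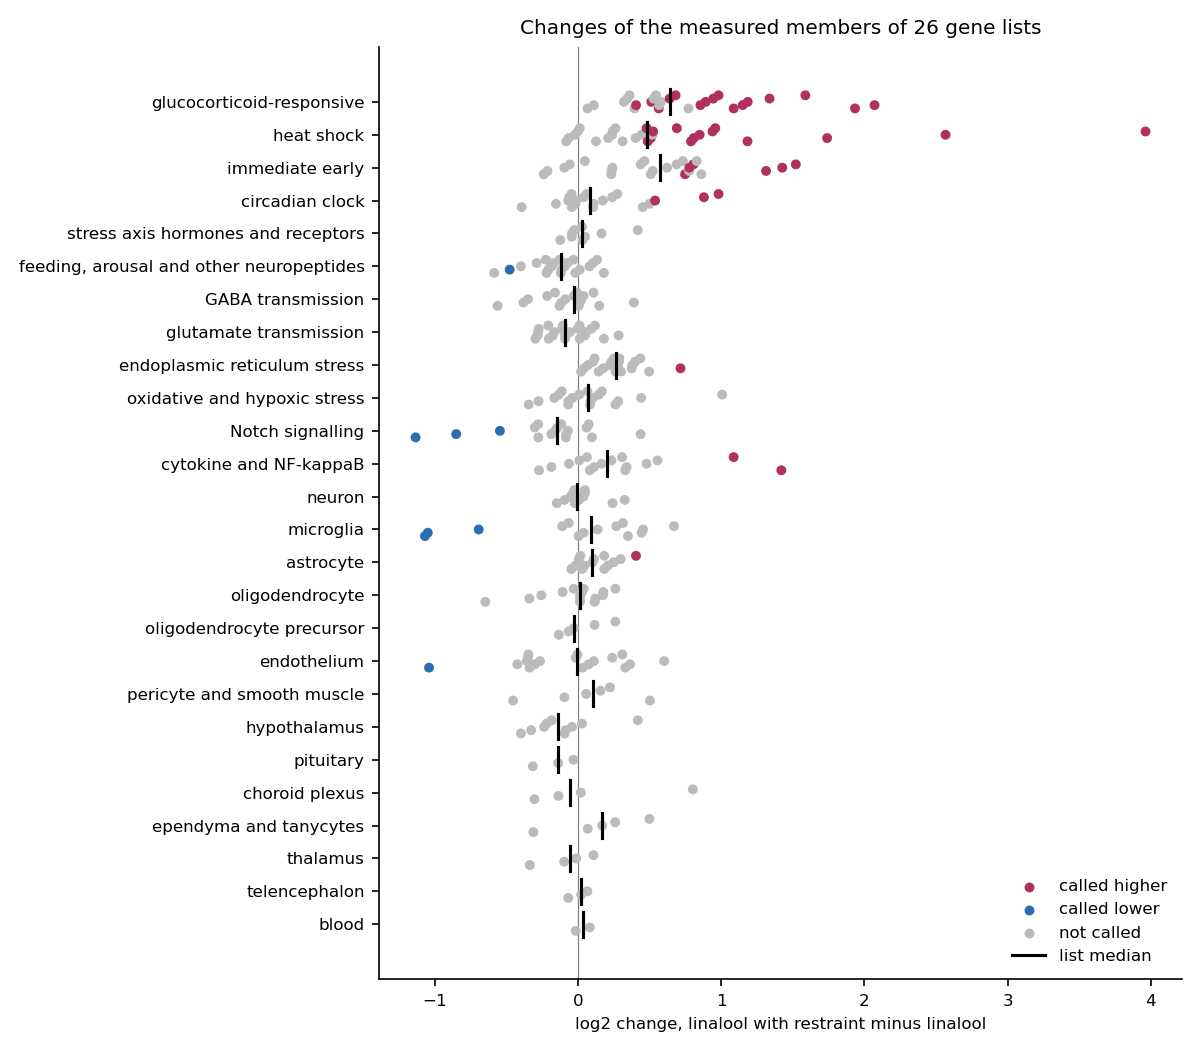
Log2 change with restraint among linalool-inhaling rats on the horizontal axis for each measured member of 26 lists on the vertical axis, coloured by call, with a bar at the list's median. The medians of the glucocorticoid-responsive, immediate early and heat shock lists stand at 0.64, 0.57 and 0.48, and the called members among the marker lists are 3 microglia genes and 1 endothelial gene on the left and 1 astrocyte gene on the right.

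The other genes among the steepest changes belong to no list. Giot1, a zinc finger gene induced by gonadotropins, stood at 6.31, 5.88, 6.20 and 6.43 and at 7.52, 7.79, 7.92 and 7.30, and rose by 1.43 (SE 0.23, adjusted p = 0.00544). Ccdc117 read 6.99, 7.14, 7.02 and 7.22 and then 8.80, 8.51, 8.37 and 8.07, a rise of 1.34 (SE 0.15, adjusted p = 0.000263). In both genes every restrained rat was above every unrestrained one. Downward, Ccdc77 fell by 1.60 (SE 0.39, adjusted p = 0.0489; its other probe set gave -1.46 and did not pass), with restrained values of 5.65, 5.40, 7.41 and 6.04 in which rat 3 stood near the linalool rats at 7.56 to 7.89. Of its 28 alternatives 19 ended that call, among them the replicate block at an adjusted p of 0.0652. Ccdc77 also varied among rats without odour. It read 6.45 in control rat 1 against 7.59 to 7.99 in the other controls, and 6.51 to 7.68 in the restrained ones. Cd33, an inhibitory sialic acid receptor of myeloid cells, was at 7.08 or above in all linalool rats and at 6.78 or below in all restrained ones, and fell by 1.00 (SE 0.15, adjusted p = 0.00336). Car4, a membrane carbonic anhydrase of brain capillaries, fell by 0.79 (SE 0.14, adjusted p = 0.00744). Tmem234, Zfp324, Prr5l and Rpusd3 fell by 1.13, 0.93, 0.82 and 0.79.

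Further called genes were chosen after their values were seen. P4ha1, a subunit of the prolyl hydroxylase that modifies collagen, stood at 9.19, 9.16, 9.16 and 9.37 and at 10.48, 10.26, 10.12 and 9.86, without overlap, and rose by 0.96 (SE 0.15, adjusted p = 0.00528). Its relative P4ha2 rose by 0.72 and the lysyl hydroxylase Plod1 by 0.52. The arrestin-domain genes Arrdc2, Arrdc3 and Arrdc4, adaptors for the removal of membrane proteins, rose by 0.51, 0.46 and 0.88. Arrdc2 is also counted among the risen glucocorticoid-responsive genes. Plekhf1, an endosomal and lysosomal protein, read 7.55, 7.53, 7.41 and 7.61 and then 8.70, 8.64, 8.70 and 8.53, with little spread in either group, and rose by 1.12 (SE 0.08, adjusted p = 3.74e-06). Rbm3, an RNA-binding protein induced by cold, moved the other way. It read 9.54, 9.99, 9.71 and 9.98 and then 9.32, 8.57, 9.12 and 9.15, without overlap, and fell by 0.76 (SE 0.17, adjusted p = 0.0295). The transferrin receptor Tfrc fell by 0.61 (SE 0.10, adjusted p = 0.00633).

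The same 178 genes were then read in rats that breathed no odour, which share no array with this comparison. Both changes come from 1 fit with a shared spread per gene, normalization and filter. A gene with a small spread is thus favoured for a call in both, and the overlap of calls is not independent agreement. Of the 105 genes that rose, 98 had a positive change with restraint there too, where 48.9% of all genes did, and of the 73 that fell 65 had a negative one. The median change of the risen genes was 0.45 without odour and that of the fallen genes -0.20. The genes were chosen for their change with linalool, and that choice by itself favours a smaller change without odour. Without odour 0.621% of genes were called higher and 0.262% lower. Both comparisons called 34 genes higher, which are 32.4% of the 105 and 53.1% of those called without odour, and 9 genes lower, which are 12.3% of the 73 and 33.3% of those called without odour.

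**Figure D5:**
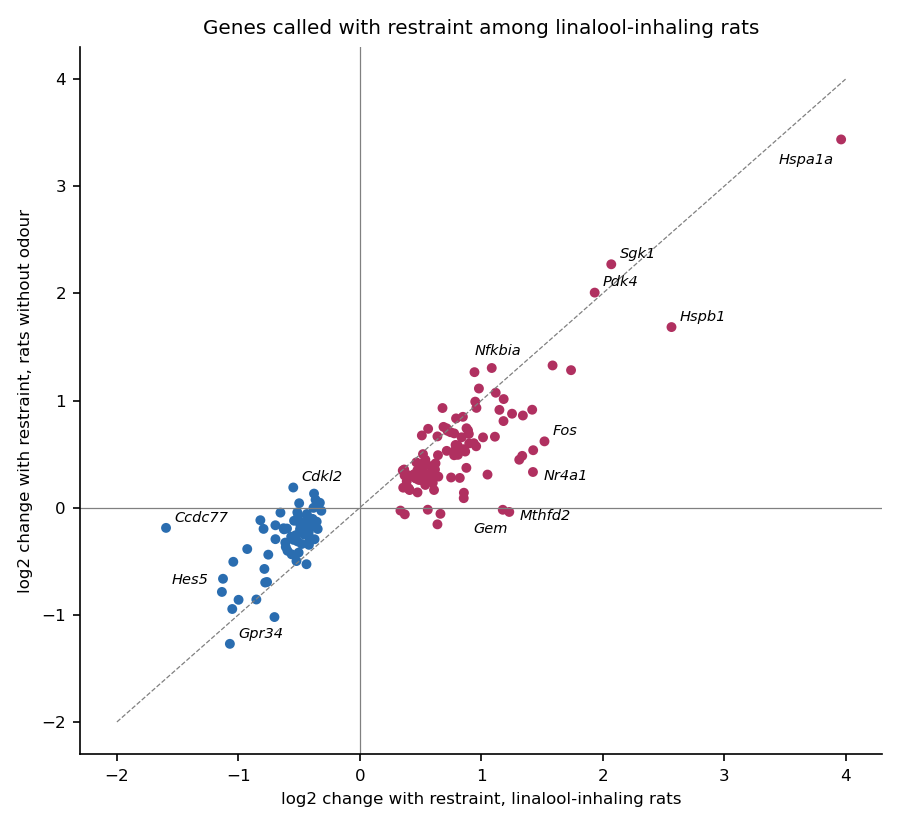
Log2 change with restraint in rats without odour (vertical axis) against that in linalool-inhaling rats (horizontal axis) for the 178 genes called in the latter, with the line of equal change dashed. Of the 105 red points, called higher, 98 lie above 0 on the vertical axis, and Fos, Nr4a1, Gem and Mthfd2 lie well below the dashed line. The genes were chosen by the horizontal axis, which by itself favours smaller changes on the vertical one.

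Whether the change with restraint differed with the odour was tested as an interaction. With limma 0 of 18625 probe sets were called (0%), 1489 had an unadjusted p under 0.05 (7.99%), and the smallest adjusted p was 0.0565. That gene was Inpp5b, an inositol phosphate phosphatase. It stood at 9.09, 9.34, 9.24 and 9.29 in the linalool rats and at 9.48, 9.50, 9.25 and 9.41 in the restrained ones, which overlap, while without odour the restrained rats (8.96, 8.81, 8.91 and 8.67) were all below the controls (9.55, 9.42, 9.54 and 9.63). Its change was 0.17 with linalool and -0.70 without, an interaction of 0.87 (unadjusted p = 3.03e-06). The interaction passed under 6 of the settings tried, among them without restrained linalool rat 3. The next smallest p-values were those of Katnip (-0.59), Bmpr2 (1.01), Cdkl2 (-0.74) and She (-0.63), with adjusted p of 0.135 to 0.309. Of these Cdkl2 fell with linalool, by 0.55 (adjusted p = 0.015), a call lost without linalool rat 3 or restrained linalool rat 1 or 2 (-0.52 to -0.47).

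Several genes were called in one setting and not in the other, and the differences given here did not pass the interaction test. Fos was called with linalool at 1.52 and not without it at 0.62 (adjusted p = 0.39), where the restrained rats read 9.68, 9.31, 8.42 and 9.31 and the controls 8.99, 8.53, 8.53 and 8.19. The interaction of 0.90 did not pass (adjusted p = 0.612). Nr4a1 changed by 1.43 and 0.33, with an interaction adjusted p of 0.559, and Jun by 1.31 and 0.45 with one of 0.494. Hspa1a changed by 3.96 and 3.44 (interaction adjusted p = 0.905), Sgk1 by 2.07 and 2.27 (0.798) and P2ry12 by -1.05 and -0.95 (0.95). Among the restrained rats without odour, rat 3 stood 0.065 above the linalool group's mean in the heat shock list, against 0.37 to 0.56 in the others. In the immediate early list it stood at 0.14 against 0.26 to 0.37. In the glucocorticoid-responsive list it was within their range, at 0.78 against 0.64 to 0.85. The part of rat 3 in these differences was not tested. Of the 178 called genes 49 had an unadjusted interaction p under 0.05. They were selected by their change with linalool, which is one side of the interaction, so that share is a description.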

How the data were processed

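Hypothalamic RNA was hybridized to 16 single-colour Affymetrix arrays, each taken as 1 rat. The authors deposited a table of signal intensity for 31099 probe sets. These linear values were made with MAS5, per the submitters' processing notes. No version or scaling target was found. Because array medians differed, the log2 values were quantile-normalized. After back-transformation 16 was added and log2 taken again. This removes any change shared by most transcripts. The 57 control probe sets were left out. Of the rest, those at or above the 40th percentile of the mean log2 value over all 16 arrays were kept (18625). Genes said to be measured passed this filter. A dim gene that was higher with restraint could thus pass through its restrained rats. Of 31042 probe sets 20826 had 1 gene symbol in the platform's table, 436 had several and 9780 had none. A gene was read at its brightest kept probe set.

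All 16 arrays entered 1 group-means model (limma 3.58.1, R 4.3.3; eBayes, two-sided tests, 12 residual degrees of freedom), with Benjamini-Hochberg adjustment across kept probe sets. The fit was also run on simulated data with independent normal noise per probe set. Those data hold no shift of whole arrays and no spike-in difference, so that run is no support for these calls. The titles number the arrays within each group and do not say whether RNA was pooled. Each array was taken as 1 rat, and on that reading p-values measure the spread between rats. Precision is limited by how few arrays there are.

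The members and the 26 gene lists were chosen with earlier results of these data known, so no list is independent evidence of its direction. Lists share some members, so Per1, Gjb6 and Nfkbia are counted among the glucocorticoid-responsive genes and again in the clock, astrocyte and NF-kappaB lists. Genes were named by rule, except where said otherwise: the 12 largest called rises and falls, up to 6 called members of each list by smallest p, 11 genes always, and the 5 smallest interaction p-values. List members that did not pass are given as examples. Promoters came from a RefSeq table of the GRCr8 build. Alternatives were the scaling, pseudocount, filter, arrays fitted, variance prior, a replicate or BioC block, the BioC-low arrays alone, a covariate for the beta-actin 3′/5′ ratio, the mean over a gene's probe sets, and leaving out each rat.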

Additional observations from a re-analysis of the deposited data

Results flagged for a closer look

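Within groups of 4 rats, 156 values were tested for a rat that stands apart, by its gap to the nearest other rat as a share of the group's range (Dixon's ratio). Of these, 12 were past the critical value, and chance passes about 1 in 20 groups. Among the linalool rats, Ch25h was high in rat 3 (ratio 0.855), at 7.32 against 6.58 to 6.69. Cebpb was low in rat 2 (0.874), at 6.29 against 6.70 to 6.76. Prr5l was high in rat 1 (0.933), at 7.41 against 7.07 to 7.10. Bcl6 was low in rat 3 (0.856), at 8.17 against 8.73 to 8.82. Cx3cr1 was low in rat 1 (0.888), at 7.34 against 7.58 to 7.62. Katnip was low in rat 4 (0.913), at 6.58 against 6.72 to 6.74.

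Among the restrained linalool rats, Tac3 was high in rat 3 (0.838), at 7.50 against 7.24 to 7.28, and Gjb6 was high in rat 2 (0.878), at 10.60 against 10.56 to 10.57. The mean deviation of the stress axis list was low in rat 2 (0.832), at -0.12 against 0.09 to 0.13. That of the oligodendrocyte precursor list was high in rat 4 (0.923), at 0.16 against -0.02 to -0.01. The thalamus list was high in rat 4 (0.954), at 0.40 against -0.26 to -0.23. The BioC spike-in was high in rat 2 (0.983), at 968 against 248 to 261.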

How the results depend on the processing

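The 314 calls became 1103 with the deposited signals, 188 without a filter, 499 with the BioC level as a block, 73 on the BioC-low arrays and 553 with a beta-actin covariate, and ran from 113 to 397 with 1 rat left out. They were 259 with median scaling, 302 and 327 with pseudocounts of 1 and 64, 224 at the 60th percentile, 294 over 2 groups and 324 with a trended, robust prior. With the replicate block they were 312. Same-numbered rats correlated at -0.11, 0.06, 0.08 and -0.03 in their deviations, within the -0.13 to 0.15 of unlike-numbered rats. That gave no sign that the numbers pair the rats, but 4 rats per group cannot exclude it. The 0 interaction calls became 1 with the deposited signals (Nt5dc1) and 1 (Inpp5b) with a pseudocount of 64, the 60th percentile, the trended prior or the BioC block, 14 with the beta-actin covariate, and 0 to 1 with 1 rat left out; a fit over 2 groups gives no interaction. The cause was not tested. Of 1432 values of named genes, 1281 kept their direction and side of the threshold, 136 lost the call, 7 gained one and 8 turned sign. The last were Katnip (0.071) and She (0.15) with the deposited signals and Avp, -0.10 with median scaling and -0.22 to 0.19 with 1 rat left out (-0.22, -0.03, -0.01, -0.06 and -0.00089 where it turned). Sgk1, Pdk4, Ddit4, Dnajb1, Bcl6, Nfkbia, Tiparp and Ccdc117 kept their call under every alternative. Bag3, Giot1, Hes5, Hspa1a, Hspb1, Hspb8, Jun, Klf6, Per1, Per2 and Tmem234 lost it only on the BioC-low arrays. That setting changes the number of rats and the spike-in level together, so these cannot be told apart. Dim genes, near the pseudocount, are the least certain in size.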
